A study of Mus musculus with 22 samples.

Results

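The Cyp2b genes encode cytochrome P450 enzymes, and 5 of them were examined here (Cyp2b9, Cyp2b10, Cyp2b13, Cyp2b19 and Cyp2b23) together with the nuclear receptor genes Nr1i3 and Nr1i2 and with Por. The members were all probes on the array that carry 1 of these 8 gene names, which gave 11 of 41174 probes that are not controls, and 8 of 28034 gene names. The genes were picked because Cyp2b9, Cyp2b10 and Cyp2b13 stood high in fasted knockout livers. For these 8 genes, values of that contrast, and of contrasts that share its arrays, are therefore given as a description, with no test; tests printed for that contrast are those of other genes.

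Cytochrome P450 enzymes of the 2B family oxidise drugs, steroids and other lipophilic compounds in the endoplasmic reticulum of hepatocytes. They receive their electrons from the reductase encoded by Por. In mouse liver Cyp2b10 is the classic target of the constitutive androstane receptor (CAR, gene Nr1i3), which is activated by phenobarbital, while the pregnane X receptor (PXR, gene Nr1i2) shares many of its targets. Cyp2b9 and Cyp2b13 are known as genes with higher expression in female than in adult male liver.

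The study compared livers of mice with and without Tcf7l2, a DNA-binding partner of beta-catenin in the Wnt pathway, on 22 arrays of 22 samples. All mice were labelled C57BL/6. The newborn groups were 4 Tcf7l2+/+ (wild type) and 4 Tcf7l2-/- (knockout) pups, which had all been injected subcutaneously with 50 ul of 10% glucose and gave their livers at 5 h. All adults carried Tcf7l2loxp/loxp and had been given tamoxifen at 3 weeks of age. The knockouts, named LTCF4KO in the labels, also carried SA-CreERT2, a Cre recombinase switched on by tamoxifen, and the controls lacked it. After 1 to 2 months, 4 controls and 4 knockouts were fasted for 24 h, and 3 controls and 3 knockouts were fed. The labels do not state how much of the liver recombined, and the controls had tamoxifen but no Cre, so an action of Cre itself cannot be told apart from loss of Tcf7l2. Per the labels, replicates of a group are biological.

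Liver RNA carried Cy3, a common mouse reference RNA carried Cy5 on every array with no dye swap, and values are log2 ratios of liver over reference. Of the liver spots, 50.2% to 64.4% were well above background on newborn arrays, 50.2% to 62.0% on fasted arrays and 22.8% to 31.2% on fed arrays, so weak signals are least certain on the fed arrays. Newborn wild types lay on slide 1 and newborn knockouts on slide 2, so slide and genotype cannot be told apart there. The fasted arrays shared slides 3 and 4 between genotypes and the fed arrays slides 5 and 6, so fasted and fed livers were never on the same slide. The brightest Tcf7l2 probe changed by -0.87 ± 0.19 (SE) in newborn knockouts (limma adjusted p = 0.0572). It changed by 0.35 ± 0.17 in fasted and by 0.21 ± 0.20 in fed knockouts, so it did not check the adult genotypes, and adult directions rest on the labels. Each of the 22 arrays had all 11 hepatocyte markers well above background. Among adults Y-linked Eif2s3y lay between 2.22 and 2.83 on all 14 arrays, as in males, while 3 newborn arrays (wild types 1 and 4 and knockout 4) had Xist at -0.34 or above with Eif2s3y at or below 0.88.

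The 5 Cyp2b genes lie in 1 cluster on chromosome 7, so the sequences are shown to tell which genes could share a probe or a start region. On build mm9 the only Cyp2b10 probe lies at 26702056 to 26702115, the Cyp2b13 probes at 26873757 to 26880713 (its 60 bases spread over 6957 bases of the genome, so across at least 1 intron) and at 26880905 to 26880964, and the Cyp2b9 probes at 26983484 to 26983543 and at 26995607 to 26995666. The Cyp2b23 probe lies at 27460121 to 27460180 on the minus strand and the Cyp2b19 probes at 27550443 to 27550502 and at 27557410 to 27557469. Nr1i3 was read at 173147776 to 173147835 of chromosome 1, Nr1i2 at 38248745 to 38248804 of chromosome 16 on the minus strand, and Por at 136211116 to 136211175 of chromosome 5. The 3 probes below are 60 bases long. Those of Cyp2b10 and Cyp2b13 gave the main values of these genes. For Cyp2b9 the second probe is shown, while its main values come from the brightest probe (A_51_P467076), which is not shown. The files hold no exon annotation, and whether a probe also binds the transcript of another Cyp2b gene was not tested. The Cyp2b13 probe below reads the conserved stretch that encodes the haem-binding site shared by P450 enzymes.
Cyp2b10 probe A_52_P472486: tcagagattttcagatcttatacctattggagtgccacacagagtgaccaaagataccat
Cyp2b13 probe A_51_P492339: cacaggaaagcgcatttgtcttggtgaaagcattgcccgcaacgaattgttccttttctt
Cyp2b9 second probe A_52_P256914: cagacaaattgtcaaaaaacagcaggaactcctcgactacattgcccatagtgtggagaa

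All 8 genes had an entry in the RefSeq promoter table (build GRCm38.p6). Over the 250 bases before the start the table gives, Cyp2b9 and Cyp2b13 differed at 2 positions and were 99.2% identical. Cyp2b10 was 71.4% identical to either of them after alignment, and Cyp2b19 and Cyp2b23 were 64.8% and 64.9% identical to Cyp2b9. Between Cyp2b9 and Nr1i3, Nr1i2 or Por, which are no relatives, the same alignment gave 48.9%, 46.2% and 45.3%. Bases 250 to 108 before the start are shown for the 3 genes the values turn on, at chr7:26173159-26173301, chr7:26061245-26061387 and chr7:25897408-25897550, all on the plus strand. The stretch ends there because RefSeq lists an earlier start among these 3 genes. The rest of the window may thus be transcribed in part, while the identities and motif searches used all 250 bases. Capitals in Cyp2b9 and Cyp2b13 mark the 2 bases that differ between them, 203 and 147 bases before the start, and capitals in Cyp2b10 mark bases that differ from Cyp2b9 in the alignment.
Cyp2b9: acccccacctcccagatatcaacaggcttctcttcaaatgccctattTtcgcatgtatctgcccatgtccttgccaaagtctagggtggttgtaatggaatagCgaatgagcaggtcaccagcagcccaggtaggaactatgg
Cyp2b13: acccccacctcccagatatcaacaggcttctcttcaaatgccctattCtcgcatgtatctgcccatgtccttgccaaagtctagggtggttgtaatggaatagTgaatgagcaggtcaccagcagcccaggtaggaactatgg
Cyp2b10: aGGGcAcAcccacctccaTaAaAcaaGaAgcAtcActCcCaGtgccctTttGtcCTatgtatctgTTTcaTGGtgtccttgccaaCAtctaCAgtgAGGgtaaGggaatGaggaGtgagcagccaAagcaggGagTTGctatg
The nuclear receptor half-site AGGTCA, searched on both strands, was found in the 250 bases of Cyp2b9 and Cyp2b13 (138 bases before the start in each), Cyp2b19 (121 bases) and Cyp2b23 (164 bases) but not of Cyp2b10, and 14% of all 32851 such windows hold it. The half-site AGTTCA (11.8% of all windows), the TCF/LEF motif CTTTGAT (3.21%) and the STAT5 motif TTCNNNGAA (7.02%) matched none of the 8 members. The phenobarbital-responsive enhancer of Cyp2b10 lies farther upstream than this window.

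On their brightest probes, Cyp2b9 and Cyp2b13 were low in fasted controls and high in the other 5 groups. Cyp2b10 was low in all wild-type and control livers and high in all adult knockouts except fed knockout 3. Cyp2b9, read by its brightest probe (A_51_P467076), gave log2 ratios of 5.41, 5.06 and 6.29 in fed controls 1 to 3, while fed knockouts 1 to 3 gave 5.84, 6.76 and 2.62. Fasted controls 1 to 4 gave 0.72, 0.57, 1.14 and 1.36, and fasted knockouts 1 to 4 gave 5.66, 4.89, 4.28 and 5.69. All 4 fasted controls lay below every other array of the study, and the fasted knockouts lay within the range of the fed livers. The fasted knockouts stood 4.18 ± 0.68 (SE) above the fasted controls, 18.2-fold. From fed to fasted the difference was -4.64 ± 0.74 in controls, 24.9-fold, and 0.06 ± 0.74 in knockouts.

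Cyp2b13, read by the intron-spanning probe (A_51_P492339), gave 2.74, 2.84 and 5.32 in fed controls 1 to 3, while fed knockouts 1 to 3 gave 4.39, 5.38 and 2.01. The fasted controls gave 0.77, 0.43, 0.87 and 1.30 and the fasted knockouts 4.60, 4.40, 3.69 and 5.00. The order of the arrays was close to that of Cyp2b9, with a correlation of 0.94 over the 14 adult arrays, which share their labelling and reference. The fasted knockouts stood 3.58 ± 0.67 above the fasted controls, 12-fold, and from fed to fasted the controls differed by -2.79 ± 0.72. Fed knockout 3 was the lowest fed array for both genes, and its liver spots were not well above background there.

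Cyp2b10, the CAR target, gave 0.19, 0.19, -0.10 and 0.56 in fasted controls 1 to 4, while fasted knockouts 1 to 4 gave 4.14, 3.66, 3.12 and 4.81. The fed controls gave 0.63, 0.21 and 0.78 and the fed knockouts 3.06, 3.48 and 0.91. No fed control and 1 of 4 fasted controls was well above background, so control levels were close to the limit of the measurement in both feeding states. Every adult knockout lay above every adult control, with fed knockout 3 closest to them. It gave 0.91 against 0.78 in fed control 3, and neither was well above background, so that gap is not resolved. The fasted knockouts stood 3.72 ± 0.47 above the fasted controls, 13.2-fold on the measured means, a fold that rests on control signals near background. The difference from fed to fasted was -0.33 ± 0.51 in controls and 1.45 ± 0.51 in knockouts, and it was measured between slides. With Agilent's own processed signals the control difference was 1.40 in place of -0.33.

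**Figure D1:**
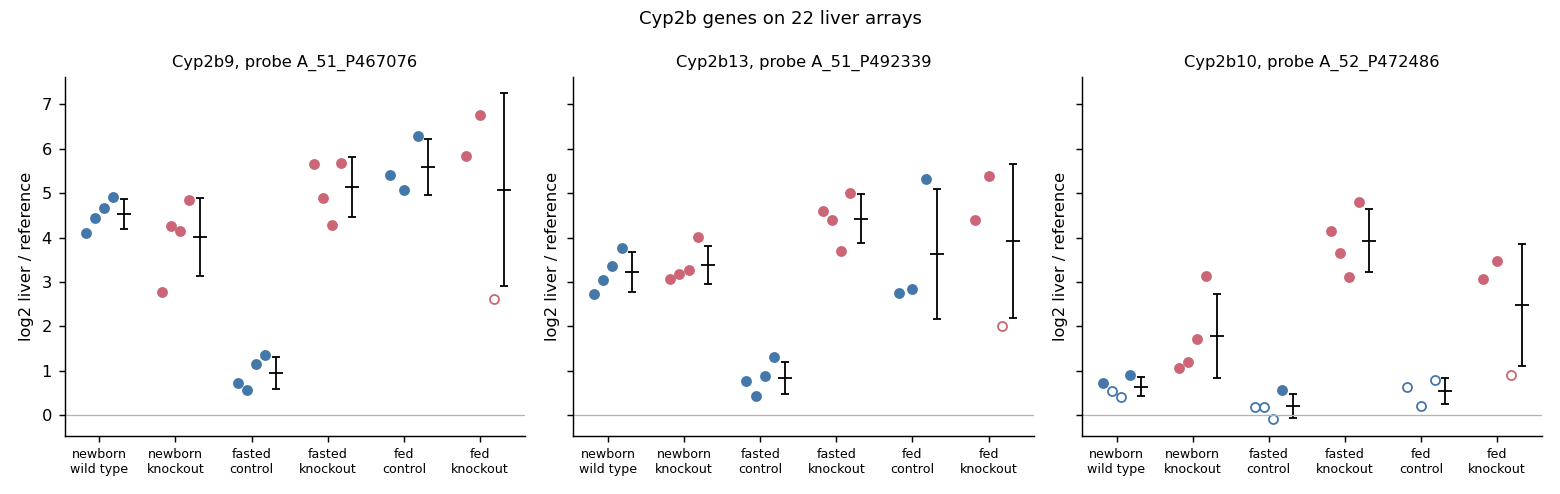
Log2 ratio of liver over reference (vertical axis) for Cyp2b9, Cyp2b13 and Cyp2b10 on each of 22 arrays in 6 groups; filled points were well above background in the liver channel, open points were not, blue is wild type or control, red is knockout, and black bars are the mean ± SD. For Cyp2b9 the 4 fasted controls, between 0.57 and 1.36, lie below all other arrays, whereas for Cyp2b10 the adult controls of both feeding states lie between -0.10 and 0.78 and the fasted knockouts between 3.12 and 4.81.

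In the fasted contrast the knockouts lay above every fasted control for Cyp2b9, Cyp2b10 and Cyp2b13 on their brightest probes. Of all 17188 genes tested 2.97% did so. The members were chosen from this contrast, so nothing is read from their separation. Cyp2b19 and Cyp2b23 did not share the pattern. The brighter Cyp2b19 probe (A_51_P352763) ranged from 0.03 to 0.43 in fasted controls and from 0.18 to 0.49 in fasted knockouts, a difference of 0.01 ± 0.15, and was above background on no fed array. The other Cyp2b19 probe (A_52_P421626) was well above background on none of the 22 arrays. The Cyp2b23 probe (A_51_P330380), not tested because it was well above background only on newborn knockouts 2 and 3, lay between 0.04 and 0.36 on all 8 fasted arrays.

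No single array carried the fasted difference. With each of the 8 fasted arrays left out in turn it stayed between 3.99 and 4.47 for Cyp2b9, between 3.43 and 3.99 for Cyp2b10 and between 3.39 and 3.83 for Cyp2b13. Within slide 3 it was 4.63 for Cyp2b9, 3.71 for Cyp2b10 and 3.90 for Cyp2b13, and within slide 4 it was 3.74, 3.73 and 3.26. The markers of pancreas were raised on fasted knockouts 2 and 3, with all 11 of 11 well above background and summed liver signals of 290453 and 139400 intensity units, against 1224 to 1877 on the other 6 fasted arrays. On those 2 arrays the 3 Cyp2b genes were lower than on fasted knockouts 1 and 4. The 10 markers of neutrophils and their precursors summed to between 1738 and 14702 in fasted knockouts and between 1849 and 4146 in fasted controls. The 6 cholangiocyte markers summed to 12055, 12989, 6929 and 5940 in fasted knockouts 1 to 4, all above the 4158 to 5899 of fasted controls, with 0 of 6 passing in limma and 2 higher at an unadjusted p under 0.05. The 8 fat markers summed to 38846 on fasted knockout 1 and to between 176313 and 296579 on the other fasted arrays. Fasted knockout 1 had 5 of them well above background and the other fasted arrays 2 to 6. The sum need not follow fat tissue, as fed controls gave 252071 to 334368 with at most 3 of 8 well above background. For the neutrophil, cholangiocyte and fat markers, their part in the result was not tested. Without fasted knockouts 2 and 3 the differences were 4.73 ± 0.85, 4.26 ± 0.55 and 3.96 ± 0.86 for Cyp2b9, Cyp2b10 and Cyp2b13. The sizes, though not the direction, depended on the normalization: with median centring in place of loess they were 2.89, 2.20 and 2.15, and in the liver channel alone 3.06, 2.52 and 2.68. In bulk liver, more cells that express a gene and more RNA per cell cannot be told apart.

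The probes of a gene did not always give the same account. The second Cyp2b9 probe (A_52_P256914) gave 0.26, 0.24, 0.43 and 0.30 in fasted controls, while the fasted knockouts gave 1.93, 1.27, 0.85 and 1.86, so the groups were separate in the same direction. No fasted control was well above background on it, so the measured means of 0.31 ± 0.09 and 1.48 ± 0.51 (SD, n = 4 each) give an at least 2.08-fold higher level. Such a bound sets the brighter group's mean liver signal against, on each array of the dim group, the higher of the probe's own signal and the lowest signal well above background, and without dye swaps it is open to dye bias. On this probe the knockout difference was 1.17 ± 0.55. The controls differed by -1.61 ± 0.59 from fed to fasted, measured between slides. Fed controls 1 to 3 gave 1.16, 0.99 and 3.60, and only fed control 3 was well above background, so no fold is given.

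The second Cyp2b13 probe (A_52_P289091), which lies 3' of the intron-spanning one, did not show the difference between fasted genotypes. The fasted controls gave 0.19, 0.22, 0.04 and 0.58 and the fasted knockouts 0.60, 0.38, 0.52 and 0.25, which overlap, with a difference of 0.18 ± 0.43. It was high in fed livers of both genotypes, at 3.45, 1.31 and 4.12 in controls and 2.20, 2.92 and 2.64 in knockouts. It was well above background on 1 of 4 fasted controls, 2 of 3 fed controls and all 7 adult knockouts, so the fasted control level is close to the limit of the measurement. From fed to fasted its measured difference was -2.70 ± 0.47 in controls and -2.15 ± 0.47 in knockouts, where the first probe gave 0.50 ± 0.72. Over the 14 adult arrays the probes of Cyp2b13 correlated at 0.42, less than the first of them with the brightest Cyp2b9 probe (0.94) or with Cyp2b10 (0.78). The fasted rise credited to Cyp2b13 was thus seen by 1 of its 2 probes. Whether the intron-spanning probe reads other Cyp2b transcripts was not tested.

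**Figure D2:**
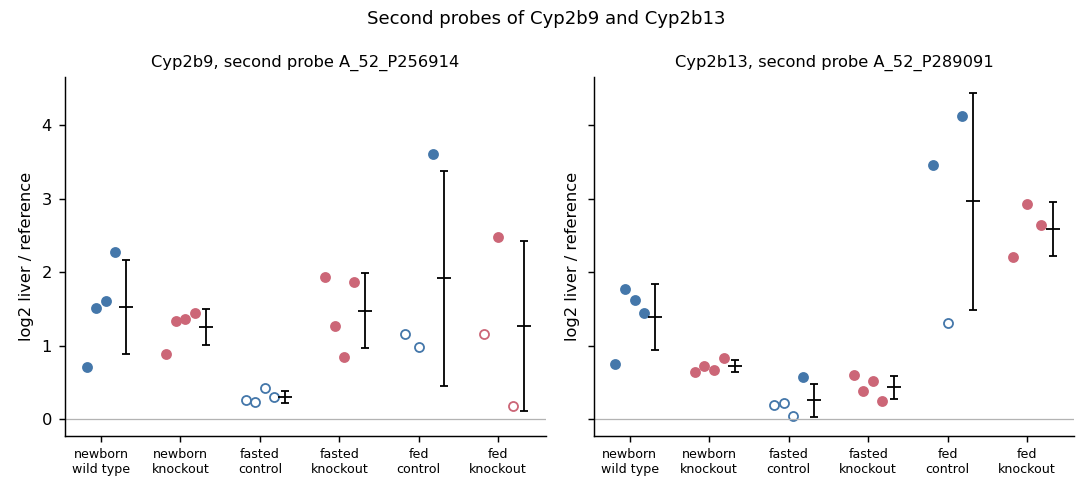
Log2 ratio of liver over reference (vertical axis) for the second probes of Cyp2b9 and Cyp2b13 on each array in 6 groups, with symbols as in the plot of the 3 Cyp2b genes. The second Cyp2b9 probe separates fasted knockouts (0.85 to 1.93) from fasted controls (0.24 to 0.43), while the second Cyp2b13 probe has both fasted groups at or below 0.60 and the fed groups at or above 1.31.

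In fed livers, where the knockout comparison was tested, no member passed. Cyp2b10 was higher in fed knockouts 1 and 2, while fed knockout 3, at 0.91, was not resolved from fed control 3, at 0.78. The means of knockouts and controls were 2.48 ± 1.38 and 0.54 ± 0.29 (SD, n = 3 each). The log2 difference was 1.94 ± 0.55 (SE, limma adjusted p = 0.314). The SE and p of the fed differences rest on a spread shared by all 14 adult arrays, the fasted arrays that chose the members included. They do not measure the spread of the fed arrays alone. Because no fed control was well above background on this probe, and only 2 of 3 knockouts were, no fold is given for fed livers. The difference rested on the array left out: without fed knockout 3 it was 2.73 ± 0.39 and passed (limma adjusted p = 0.00792), and with any other fed array left out it did not pass. Cyp2b10 met the filter of 3 adult arrays only through knockouts. It was well above background on 4 fasted and 2 fed knockouts, but on 1 fasted control and 0 fed controls. The tests of Cyp2b10 in fed livers are therefore not free of the choice of genes. Over all alternatives tried, the adjusted p ran from 0.00792 to 1. Within slide 5 the difference was 2.64 and within slide 6, which holds fed knockout 3 alone of its group, it was 0.42. The medians of the hepatocyte markers and of the Kupffer cell and macrophage markers differed by 0.47 and 0.57 in fed knockouts, with 0 of 11 and 0 of 10 passing in limma and 6 of each higher at an unadjusted p under 0.05, and their part in the result was not tested.

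Cyp2b9 differed by -0.51 ± 0.79 (limma adjusted p = 0.999) between fed knockouts and fed controls and Cyp2b13 by 0.30 ± 0.77 (limma adjusted p = 0.999). Their direction turned between slides, at 0.89 and 2.15 within slide 5 and -3.05 and -2.07 within slide 6. Slide 5 holds 1 control and slide 6 holds 1 knockout, so each of these values has an arm of 1 array. Of 7 tested members 0 passed in limma and 1, Cyp2b10, had an unadjusted p under 0.05, against 0.221% of 17188 genes that passed and 1228 with an unadjusted p under 0.05. Knockouts lay above all controls for 2 members, Cyp2b10 and Nr1i2, where 7.01% of all tested genes did so. For Cyp2b10 that separation rests on the unresolved gap between fed knockout 3 and fed control 3.

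**Figure D3:**
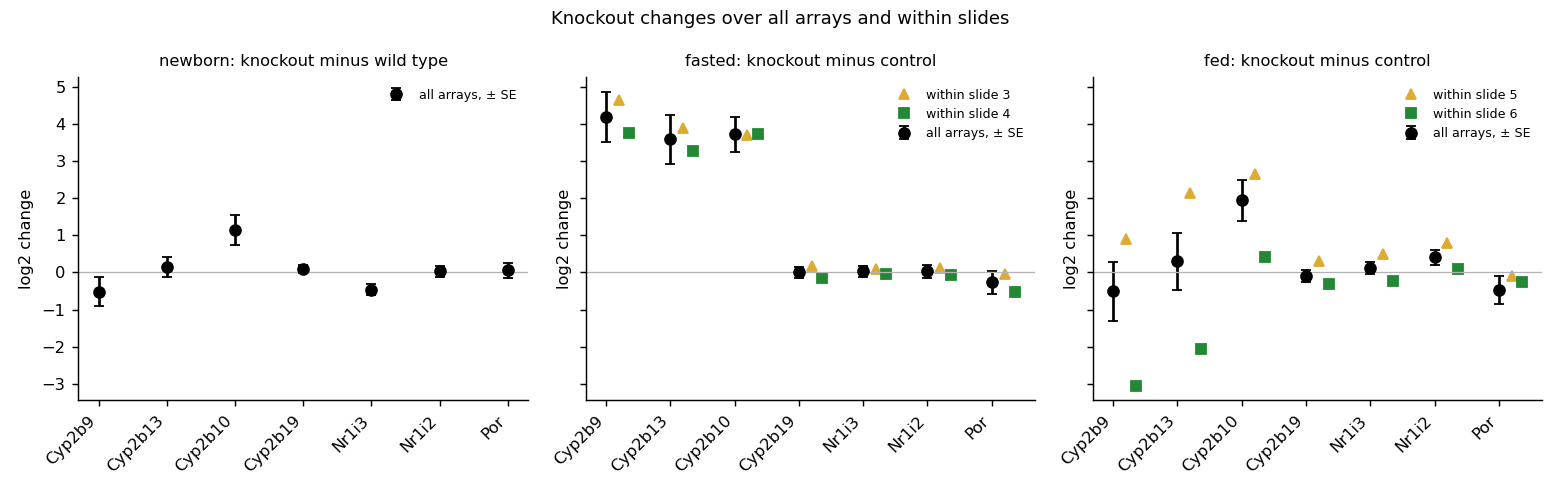
Log2 difference of knockout minus wild type or control (vertical axis) for 7 tested members in newborn, fasted and fed livers, with black points for all arrays ± SE, triangles for slides 3 and 5 and squares for slides 4 and 6. In fasted livers both slides give between 3.26 and 4.63 for the 3 Cyp2b genes, while in fed livers Cyp2b9 lies at 0.89 on slide 5 and at -3.05 on slide 6.

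In newborns Cyp2b10 was higher in every knockout than in any wild type, and Cyp2b9 and Cyp2b13 were not. Cyp2b10 gave 0.72, 0.53, 0.40 and 0.91 in wild types 1 to 4 and 1.05, 1.20, 1.72 and 3.14 in knockouts 1 to 4 of that age, a difference of 1.14 ± 0.40 that did not pass (limma adjusted p = 0.230). The highest array, knockout 4, is 1 of the 3 with higher Xist. Among newborns it, knockout 3 and wild type 1 had both Xist and the Y-linked Ddx3y well above background. Knockout 3 had Xist at -2.70 and Eif2s3y at 2.33. Pooling of livers is not mentioned in the labels. Without wild types 1 and 4 and knockout 4, and with knockout 3 kept, the difference was 0.86 ± 0.22 (limma adjusted p = 0.160). Without knockout 4 alone it was 0.68 ± 0.19 (limma adjusted p = 0.210). Of the wild types, 2 were not well above background, while all 4 knockouts were. The gene thus met the filter of 4 newborn arrays only with the knockouts counted. Over all alternatives tried, the adjusted p ran from 0.0793 to 1. Kupffer cell and macrophage markers had a median change of -0.63 in the same pups, with 2 of 10 lower in limma, and endothelial markers one of -0.47 with 0 of 8 passing and 5 lower at an unadjusted p under 0.05; their part in the result was not tested.

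Cyp2b9 in newborns gave 4.11, 4.43, 4.67 and 4.92 in wild types and 2.77, 4.27, 4.15 and 4.85 in knockouts, which overlap, with a difference of -0.52 ± 0.39 (limma adjusted p = 0.660). Cyp2b13 differed by 0.15 ± 0.26 (limma adjusted p = 0.886) on the intron-spanning probe and by -0.67 ± 0.20 (limma adjusted p = 0.146) on the other, so the probes also differ in sign there. Of 7 tested members 0 passed in limma and 2, Cyp2b10 and Nr1i3, had an unadjusted p under 0.05, against 1.46% of 17175 genes that passed and 2294 with an unadjusted p under 0.05. The knockouts lay above all wild types for Cyp2b10, where 5.85% of all tested genes did, and below all wild types for Nr1i3, where 3.67% did.

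The adult genotypes overlapped for Nr1i3 in both feeding states and for Nr1i2 in fasted livers, but the fasted values of both depended on how outlying local backgrounds were treated. Nr1i3, the gene of CAR, gave 4.87, 5.00, 5.08 and 5.19 in fasted controls, while the fasted knockouts gave 5.03, 5.04, 5.14 and 5.05, a difference of 0.03 ± 0.14. The fed controls gave 4.42, 5.03 and 4.57 and the fed knockouts 5.10, 4.72 and 4.56, a difference of 0.12 ± 0.17 (limma adjusted p = 0.999). Over the alternatives the fasted difference of Nr1i3 ran from -0.29 in the liver channel alone to 1.04 with outlying local backgrounds kept. The 4 adult group means, from 4.68 to 5.07, lay within the spread of their neighbours, and both newborn groups lay below all adult arrays.

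Nr1i3 was lower in every newborn knockout than in any wild type. It gave 3.58, 3.04, 3.20 and 3.28 in wild types and 2.95, 2.72, 2.54 and 3.00 in knockouts, a difference of -0.47 ± 0.15 (limma adjusted p = 0.179). The direction of Cyp2b10 in the same pups was the opposite.

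Nr1i2, the gene of PXR, gave 4.98, 5.48, 5.69 and 5.74 in fasted controls, while the fasted knockouts gave 5.28, 5.43, 5.57 and 5.73, a difference of 0.03 ± 0.17. With outlying local backgrounds kept it was 2.19 ± 0.90, and over the other alternatives it ran from -0.13 to 0.17. The fed controls gave 4.53, 4.93 and 5.01 and the fed knockouts 5.44, 5.18 and 5.06, and the groups did not overlap. That difference, 0.41 ± 0.20, did not pass (limma adjusted p = 0.756), and it was -0.02 in the liver channel alone. In newborns, at 4.72, 4.31, 4.47 and 4.56 in wild types and 4.65, 4.32, 4.39 and 4.82 in knockouts, the difference was 0.03 ± 0.14 (limma adjusted p = 0.973). From fed to fasted controls Nr1i2 differed by 0.65 ± 0.19 and Nr1i3 by 0.36 ± 0.15, measured between slides. With outlying local backgrounds kept they were -1.51 and -0.65, and Nr1i2 was also -0.28 in the liver channel alone.

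Por, the electron donor of all microsomal P450 enzymes, overlapped between genotypes in every state. The fasted controls gave 0.94, 1.42, 2.05 and 2.12 and the fasted knockouts 1.05, 1.25, 1.91 and 1.22, a difference of -0.27 ± 0.32. The fed controls gave 0.37, 1.08 and 1.59 and the fed knockouts 0.19, 0.37 and 1.06, a difference of -0.47 ± 0.37 (limma adjusted p = 0.967). Its group means lay in the order newborn, fasted and fed, from 2.75 to 0.54, and the genotypes within each age and state differed by about their spread or less. In newborns, at 2.43, 2.91, 2.77 and 2.63 in wild types and 2.15, 2.89, 2.99 and 2.95 in knockouts, the difference was 0.06 ± 0.20 (limma adjusted p = 0.947), and knockout 1 lay apart below the others.

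**Figure D4:**
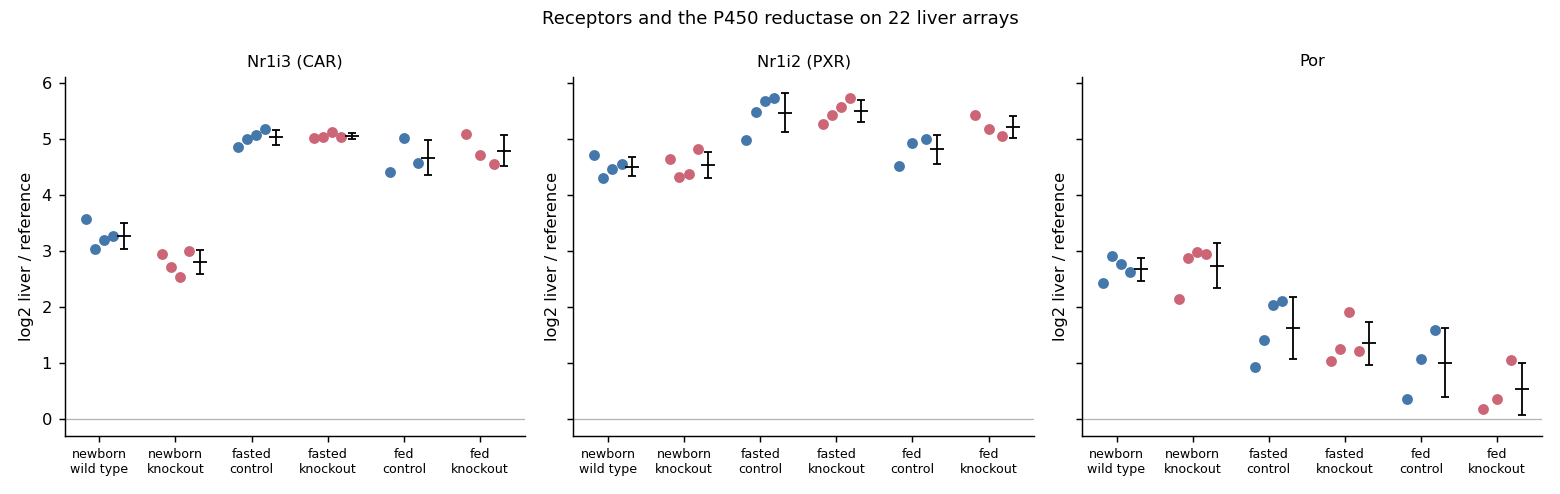
Log2 ratio of liver over reference (vertical axis) for Nr1i3, Nr1i2 and Por on each array in 6 groups, with symbols as in the plot of the 3 Cyp2b genes. Genotypes overlap in fasted livers for all 3 genes, and Nr1i3 is lower in newborn knockouts (2.54 to 3.00) than in newborn wild types (3.04 to 3.58).

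Cyp2b10 itself did not pass in newborns or fed livers, and in fasted livers it is described without a test. Of the CAR and PXR target genes outside the members, none passed as higher in knockouts at any age or state. Of 27 tested in fasted livers 0 were higher and 1 was lower in limma, with 2 higher and 1 lower at an unadjusted p under 0.05 and a median change of 0.12 against 0.01 over all genes. The 3 at an unadjusted p under 0.05 are to be read against 11.1% of all genes tested in fasted livers, 7.14% in fed livers and 13.4% in newborns, and the same shares stand beside each list count at an unadjusted p given here. The gene that fell, Gstm2, encodes a glutathione transferase and changed by -1.52 ± 0.25 (limma adjusted p = 0.0115). Sult1e1, the oestrogen sulfotransferase, stood at 3.57 ± 1.74 in fasted knockouts and 1.27 ± 0.36 in fasted controls (SD, n = 4 each), a difference of 2.30 ± 0.62 that did not pass (limma adjusted p = 0.155). The glutathione transferase gene Gsta1 differed by 1.06 ± 0.36 (limma adjusted p = 0.278) and the P450 gene Cyp2c37 by -0.38 ± 0.18 (limma adjusted p = 0.464).

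In fed livers Gstm2 fell by 2.13 ± 0.28 (limma adjusted p = 0.00464), the only one of 27 targets to pass, and Cyp2a5 differed by -0.83 ± 0.22 (limma adjusted p = 0.274). The median over the targets was -0.01, against 0.02 over all genes. In newborns 1 of 26 passed, Cyp2c37, which fell by 1.63 ± 0.30 (limma adjusted p = 0.0362). The transporter gene Abcc3 differed by -0.62 ± 0.13 (limma adjusted p = 0.0550), the aldehyde dehydrogenase gene Aldh1a1 by 0.56 ± 0.13 (limma adjusted p = 0.0673) and Alas1, which encodes the first enzyme of haem synthesis in liver, by 0.57 ± 0.15 (limma adjusted p = 0.106). The median over the targets was -0.15, against -0.01 over all genes.

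**Figure D5:**
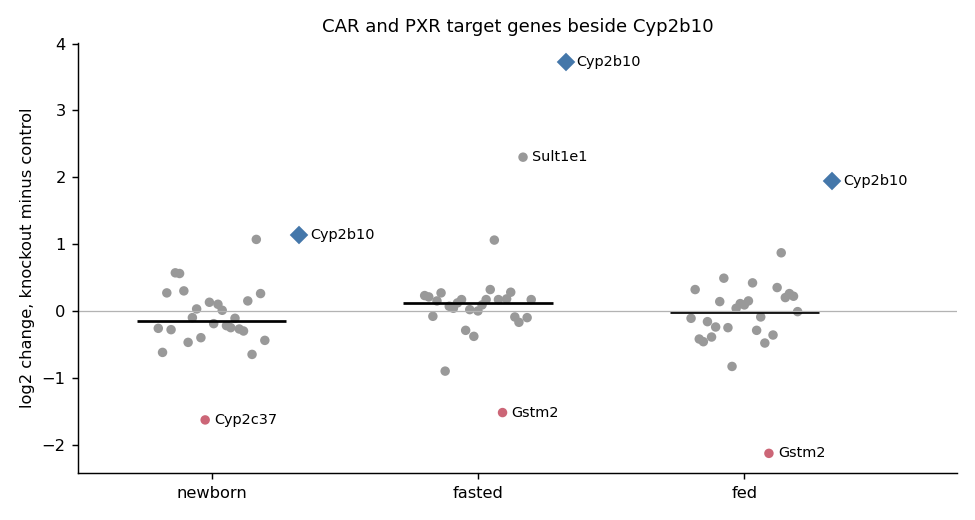
Log2 difference of knockout minus wild type or control (vertical axis) for the tested CAR and PXR target genes in newborn, fasted and fed livers, with red points for genes that passed limma, grey for those that did not, a black line at the median and a blue diamond for Cyp2b10. The medians lie at -0.15, 0.12 and -0.01, and Cyp2b10 lies at 1.14, 3.72 and 1.94.

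None of 19 tested partners and regulators of CAR and PXR, among them Rxra, the coactivator genes and Hnf4a, passed in limma in newborn, fasted or fed livers. At an unadjusted p under 0.05 the counts were 0 higher and 1 lower in newborns, 2 higher and 0 lower in fasted and 2 higher and 0 lower in fed livers. The smallest adjusted p values were those of Ppargc1a in fasted livers (0.70 ± 0.30, limma adjusted p = 0.408), of Cebpa in newborns (-0.38 ± 0.13, limma adjusted p = 0.201) and of Cebpa in fed livers (0.39 ± 0.16, limma adjusted p = 0.634). Ppargc1a encodes a coactivator that rises on fasting and Cebpa a hepatocyte transcription factor.

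None of 14 genes of P450 electron transfer and haem synthesis passed in limma in any of the 3 comparisons, with 1 higher and 1 lower in newborns, 1 higher and 2 lower in fasted and 0 and 0 in fed livers at an unadjusted p under 0.05. In fasted livers Cpox, a haem synthesis gene, differed by -0.66 ± 0.16 (limma adjusted p = 0.123) and Hmox1, the haem oxygenase gene, by 1.07 ± 0.29 (limma adjusted p = 0.166).

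Among the Cyp2 genes outside the members, only Cyp2c38 in fasted livers and Cyp2c37 in newborns passed, each lower in knockouts. At an unadjusted p under 0.05 the counts were 0 higher and 5 lower in fasted livers and 2 higher and 3 lower in newborns. Of 24 tested in fasted livers 1 passed, Cyp2c38, which stood at 4.18 ± 1.13 in controls and at 0.32 ± 0.05 in knockouts (SD, n = 4 each), a change of -3.86 ± 0.46 (limma adjusted p = 0.00106), with no knockout well above background, so at least 8.91-fold lower. Cyp2e1, the ethanol-inducible P450, differed by -0.54 ± 0.14 (limma adjusted p = 0.140). In fed livers 0 of 24 passed in limma, with 2 higher and 4 lower at an unadjusted p under 0.05, and Cyp2c39 came nearest (-0.95 ± 0.18, limma adjusted p = 0.0514). In newborns 1 of 22 passed, the target gene Cyp2c37 given above.

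Cyp2b9 and Cyp2b13 belong to the female-biased liver genes, and none of the tested genes of that group outside the members passed. Of 12 tested in fasted livers 0 passed in limma, with 2 higher and 0 lower at an unadjusted p under 0.05 and a median of 0.08. Of 17 male-biased genes 0 passed there, with 0 higher and 3 lower at an unadjusted p under 0.05, and their median was -0.02, with Nudt7, a hydrolase gene, at -0.74 ± 0.21 (limma adjusted p = 0.179). In fed livers 0 of 12 and 0 of 17 passed in limma, with 1 higher and 0 lower and with 0 higher and 3 lower at an unadjusted p under 0.05, and the male-biased steroid dehydrogenase gene Hsd3b5 differed by -1.96 ± 0.57 (limma adjusted p = 0.343). In newborns 0 of 16 and 0 of 13 passed in limma, with 3 higher and 3 lower and with 1 higher and 2 lower at an unadjusted p under 0.05.

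Among 14382 genes, those whose log2 ratios followed Cyp2b10 most closely over the 14 adult arrays were Bdh2 (Pearson r = 0.92), Sfxn1 (0.90), Orm3 (0.88), Raet1e (0.82) and Drc1 (0.82). Within the 8 fasted arrays the same genes correlated at 0.96, 0.96, 0.91, 0.96 and 0.81, and within the 6 fed arrays at 0.82, 0.72, 0.92, 0.75 and 0.94. Bdh2 encodes a hydroxybutyrate dehydrogenase, Sfxn1 a mitochondrial serine transporter and Orm3 a member of the orosomucoid acute-phase family. For Cyp2b9 they were Smg9 (0.88), Sulf2 (0.85), Tcea3 (0.85), Zfand3 (0.83) and Miip (0.82). Within the fasted arrays these correlated at 0.86, 0.87, 0.90, 0.85 and 0.91, and within the fed arrays at 0.82, 0.83, 0.50, 0.65 and 0.31, so the likeness was lower in fed livers for Tcea3, Zfand3 and Miip. These genes were picked as the highest of all genes compared, and all arrays share the reference RNA, so the values are a description.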

How the data were processed

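Liver RNA of 22 samples in 6 groups was measured on 2-colour Agilent mouse arrays. Per the file headers, the authors' array files hold spot intensity values from Agilent Feature Extraction 10.5.1.1, while the submitters' processing notes name version 8.5.1.1; which of them made the deposited values is not known. The deposited log10 ratio of reference over liver, computed by Feature Extraction, was used as an alternative with its sign turned, and the deposited table of the whole series holds the same values.

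Median spot intensities were background-corrected with normexp (offset 50), with local backgrounds marked as outliers replaced by the array's median, and normalized by loess within arrays without control spots. Outlier-flagged spots were set to missing. Each gene was represented by its brightest probe and tested where 4 or more newborn arrays, or 3 or more adult arrays, had it well above background in the liver channel. Newborn arrays and adult arrays were fitted apart with limma 3.58.1 in R 4.3.3, two-sided, with Benjamini-Hochberg adjustment over all genes tested. The procedure was tested on simulated data. Plots and sequence searches used Python 3.11.15, NumPy 2.4.6 and matplotlib 3.10.9.

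The members and lists were chosen with earlier results of these data known. By the rule for names, all member probes are given, up to 4 genes of each list with the smallest adjusted p, and the 5 genes most like Cyp2b10 and Cyp2b9; of the list genes so named only some are printed, and 1 is not reported here.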

Additional observations from a re-analysis of the deposited data

Results flagged for a closer look

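Por on newborn knockout 1 gave a log2 ratio of 2.15, apart from the other 3 newborn knockouts, the nearest of which gave 2.89; its gap divided by the group's range was 0.878. It was the only such value among 44 groups of 4 arrays checked over the 11 member probes, and chance marks about 1 in 20 groups.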

How the results depend on the processing

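Across all alternatives the difference of fasted knockouts from fasted controls stayed positive for Cyp2b9, Cyp2b10 and Cyp2b13. Its size moved, down to 0.18 ± 0.43 on the second Cyp2b13 probe, where the groups overlapped. With median centring in place of loess it was 2.89, 2.20 and 2.15, in the liver channel alone 3.06, 2.52 and 2.68, with Agilent's processed signals 4.48 for Cyp2b10 and 2.84 for Cyp2b13, on the other probe 1.17 for Cyp2b9 and 0.18 for Cyp2b13, and without fasted knockouts 2 and 3 (chosen after seeing the data) 4.73 for Cyp2b9. From fed to fasted controls, Cyp2b9 gave -4.03 and Cyp2b10 1.40 with processed signals, Cyp2b9 -3.14 and Cyp2b13 -1.72 with median centring, and Cyp2b9 -1.61 on its other probe; in knockouts Cyp2b13 gave -2.15 on its other probe. In newborns 1 member, Cyp2b19 (0.62, limma adjusted p = 0.0258), passed in the liver channel alone, and in fed livers 1, Cyp2b10 (2.73), without fed knockout 3 (chosen after seeing the data). With one array left out in turn, the fasted differences ran from 3.99 to 4.47, 3.43 to 3.99 and 3.39 to 3.83 for Cyp2b9, Cyp2b10 and Cyp2b13, and Cyp2b10 from 0.68 to 1.38 in newborns and from 1.45 to 2.73 in fed livers, with 0 to 1 fed members passing. Differences between genotypes that did not pass changed sign as follows. In newborns Cyp2b13 gave -0.39 with processed signals, -0.03 without wild types 1 and 4 and knockout 4 and -0.67 on its other probe; Cyp2b19 gave -0.11 with median centring and -0.23 on its other probe. Nr1i2 gave -0.01 with outlying local backgrounds kept and -0.32 with processed signals, and Por 0.00 with array weights and -0.16 without wild types 1 and 4 and knockout 4. In fed livers Cyp2b9 gave 0.89 within slide 5 and 0.72 without fed knockout 3. Cyp2b13 gave -0.03 with quantile normalization, -0.18 in the liver channel alone, -2.07 within slide 6 and -0.38 on its other probe. Cyp2b19 gave 0.09 with median centring, 0.30 within slide 5 and 0.59 on its other probe. Nr1i3 gave -0.10 with quantile normalization, -0.50 in the liver channel alone and -0.24 within slide 6, and Nr1i2 gave -0.02 in the liver channel alone. Differences between feeding states turned too: Nr1i2 in controls gave -1.51 with outlying local backgrounds kept and -0.28 in the liver channel alone, Nr1i3 in controls gave -0.65 with outlying local backgrounds kept, and Cyp2b19 in knockouts, 0.50 on its brighter probe, gave -0.16 on its other probe. Leaving out one array moved newborn Cyp2b13 between -0.06 and 0.34, Nr1i2 between -0.06 and 0.10 and Por between -0.02 and 0.26, and fed Cyp2b9 between -1.36 and 0.72, Cyp2b13 between -0.43 and 1.25, Cyp2b19 between -0.30 and 0.05 and Nr1i3 between -0.03 and 0.30. The cause of these shifts was not tested. Outside the fits within slides, the calls over all genes ran from 0 to 928 in newborns (251 as reported). They ran from 49 to 149 in fasted (86) and from 11 to 99 in fed livers (38). In fasted livers slide 3 alone gave 380 calls and slide 4 alone 28. Replicate numbers gave no clear pairing of the arrays. The correlation of deviations between arrays of the same number ran from -0.24 to 0.50 in newborns, from 0.00 to 0.10 in fasted and from -0.11 to 0.15 in fed livers. Between arrays of different numbers it ran from -0.59 to 0.63, from -0.28 to 0.20 and from -0.12 to 0.17. With the replicate number as a block, newborn Cyp2b10 gave 1.14 (limma adjusted p = 0.112) with 347 calls over all genes, fasted Cyp2b10 3.72 with 63 calls and fed Cyp2b10 1.94 (limma adjusted p = 0.298) with 30 calls, and no call on a member changed. The number of arrays limits the precision, and signals near background limit Cyp2b10 in controls and most fed values of the dim probes.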
